A study of Homo sapiens with 23 samples.

Results

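Cancer-testis antigens and PRAME were followed across 23 bulk RNA-seq libraries of WM989 A6-G3, a human melanoma line bottlenecked to a single cell, and of 7 resistant clones of it. The genes were chosen by name, as the MAGEA, MAGEB, MAGEC, GAGE, CT45A, SSX, CSAG, XAGE, PAGE and CTAG families and PRAME. The name patterns took 98 of the 35438 genes in the table, of which 81 belong to these cancer-testis families and 1 is PRAME. The remaining 16, CTAGE genes and SSX2IP, share only letters with the family names and are not counted as cancer-testis genes below.

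Clones 7, 8 and 9 grew from colonies that resisted vemurafenib, which inhibits mutant BRAF, and were cultured with it at 1 µM. Clones 10, 11, 12 and 13 came from colonies that resisted dabrafenib, also a BRAF inhibitor, given together with the MEK inhibitor trametinib, and stayed in dabrafenib at 250 nM with trametinib at 2.5 nM. Untreated cells of the parental line had no drug, so resistance and the presence of drug cannot be told apart. Each clone is 1 colony, so a clone stands for itself and not for its drug. Every group had 3 libraries except clone 11, which had 2. The labels give the libraries of a group as biological replicates but not what set them apart, so p-values measure the spread between these libraries, which may be technical.

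Cancer-testis antigens are proteins whose genes are normally active in male germ cells and silent in most adult tissues, and many lie in multi-copy families on the X chromosome. Their silencing in somatic cells is known to rest largely on DNA methylation of their promoters, and many melanomas express some of them, where T cells can recognise their peptides. PRAME, the preferentially expressed antigen in melanoma, is a substrate receptor of a CUL2 ubiquitin ligase, is known to repress retinoic acid receptor signalling, and is used as a marker in melanoma diagnosis.

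The values are TPM, transcript levels corrected for length and expressed relative to the library total, here scaled between libraries. Sequencing depth cannot be recovered from TPM and is unknown here, and the spread between libraries was the only measure of error. A gene was tested if it reached 1 TPM in at least 2 libraries. That left 20 of the 82 cancer-testis genes and PRAME, and 62 were too low to test. By family, 3 of 3 CSAG genes were tested, 4 of 13 MAGEA, 1 of 10 MAGEB, 2 of 3 MAGEC, 3 of 6 CT45A, 2 of 17 GAGE, 1 of 11 SSX, 2 of 9 XAGE, 1 of 6 PAGE and 0 of 3 CTAG. The CTAG family includes the gene of the NY-ESO antigen, and the sum of its 3 members stayed between 0 and 0.196 scaled TPM in every library. GAGE13, GAGE2B, MAGEB1 and MAGEB4 were listed at 0 in every library, as was CTAGE12P among the genes caught by letters only. In all, 63 of the 82 genes had a mean under 1 scaled TPM in every group, the highest of these being 0.993.

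The 75 cancer-testis genes with a chromosome in RefSeq all lie on chromosome X, and PRAME lies on chromosome 22. Many are near-identical copies, among which the read assignment is uncertain. In 26 of the 77 cancer-testis genes and PRAME that matched a GENCODE transcript, over 90% of the 31-base stretches of the transcript also occurred in another gene. The CT45A, GAGE and MAGEA3 and MAGEA6 values are therefore also given as sums. XAGE2B was listed at 2 times the level of XAGE2 in every library and both names map to 1 gene of the reference, so the pair is 1 measurement, though it counts as 2 of the tested genes.

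The CSAG1 and MAGEA12 start sites lie 36 bases apart on chromosome X and point away from each other, and both genes were called in the same clones. Their promoter windows, from 250 bases before the start to 50 after it, are printed from RefSeq (GRCh38.p14), 5′ to 3′ along the gene's own strand, with each CG dinucleotide, the site of DNA methylation, in capitals. The windows overlap by 135 bases. CSAG1 is at chrX:152733672-152733971 on the minus strand and MAGEA12 at chrX:152733507-152733806 on the plus strand.
CSAG1 promoter: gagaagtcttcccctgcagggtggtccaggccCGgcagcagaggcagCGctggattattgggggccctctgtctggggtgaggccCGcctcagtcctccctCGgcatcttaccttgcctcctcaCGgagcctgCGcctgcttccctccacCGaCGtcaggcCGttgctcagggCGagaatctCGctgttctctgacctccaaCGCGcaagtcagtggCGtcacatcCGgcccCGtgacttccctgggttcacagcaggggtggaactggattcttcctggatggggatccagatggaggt
MAGEA12 promoter: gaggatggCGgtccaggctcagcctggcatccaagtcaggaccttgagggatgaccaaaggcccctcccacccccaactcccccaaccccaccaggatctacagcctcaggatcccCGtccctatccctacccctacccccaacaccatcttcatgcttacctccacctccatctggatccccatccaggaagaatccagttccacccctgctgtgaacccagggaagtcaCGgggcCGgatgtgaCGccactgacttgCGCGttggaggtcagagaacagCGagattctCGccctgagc
MAGEA3, at chrX:152698544-152698843 on the plus strand, and MAGEA6, at chrX:152769640-152769939 on the minus strand, had the same letters at 300 of 300 positions of this window, so 1 sequence stands for both. It is shown because the balance of the 2 transcripts differed between clones.
MAGEA3 and MAGEA6 promoter: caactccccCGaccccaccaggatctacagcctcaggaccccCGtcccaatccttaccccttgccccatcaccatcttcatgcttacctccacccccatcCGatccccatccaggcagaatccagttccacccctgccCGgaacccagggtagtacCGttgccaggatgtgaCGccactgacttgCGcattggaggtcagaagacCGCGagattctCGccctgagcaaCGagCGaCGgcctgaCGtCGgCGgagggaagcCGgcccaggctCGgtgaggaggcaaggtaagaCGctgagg
PRAME, the most abundant gene of the set, has its window at chr22:22559216-22559515 on the minus strand.
PRAME promoter: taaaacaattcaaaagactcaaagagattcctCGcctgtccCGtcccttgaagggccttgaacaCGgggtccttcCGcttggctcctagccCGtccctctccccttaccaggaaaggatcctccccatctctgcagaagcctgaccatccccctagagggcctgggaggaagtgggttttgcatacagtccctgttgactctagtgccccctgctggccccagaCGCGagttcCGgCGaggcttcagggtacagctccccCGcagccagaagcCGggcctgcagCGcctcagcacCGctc
The windows held 16 CG dinucleotides for CSAG1, 9 for MAGEA12, 19 for MAGEA3 and MAGEA6 and 13 for PRAME, against a median of 14 over 35116 promoter windows of the same length. CCGGAA or CCGGAT on either strand, a core that ETS transcription factors can bind, itself holds a CG. It occurred once in each of these windows and in 22.1% of all windows. In CSAG1 and MAGEA12 the match is the same site, in the overlap of their windows. RefSeq listed 2 windows for MAGEA12 and 3 for PRAME, and the first was taken, also for the distance between start sites. No methylation was measured in these libraries.

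Between 18671 and 24039 genes had a value above 0 per library, except clone 10 replicate 1 with 14415. Scaling multiplied the deposited TPM by 0.877 to 1.35, the highest in clone 8 replicate 3, and moved the fold changes of all genes in the mean of the clones by a median of 0.16 on the log2 scale, the median itself being -0.01 scaled and 0.14 as deposited. Melanocyte lineage markers, 8 of 8 of which reached 1 TPM, summed to 30.8 to 479 scaled TPM in the clone libraries and 12678 to 13143 in untreated libraries. Fibroblast markers summed to 2180 to 8025 scaled TPM in the clone libraries, with 8 of 9 reaching 1 TPM and THY1 between 0 and 0.737, against 59.9 to 69.3 in untreated libraries. Male germ cell markers summed to 0 to 0.586 scaled TPM in the clone libraries and 0.403 to 0.619 in untreated libraries, 0 of 9 reached 1 TPM anywhere, and PRM1 and PRM2 were at 0 throughout. Immune markers summed to at most 12.2 scaled TPM in the clone libraries and 3.33 in untreated libraries, and keratinocyte markers to at most 18.1 in the clone libraries and 9.70 in untreated libraries.

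PRAME was lower in every clone than in untreated cells. Its mean level was 301 ± 12.6 scaled TPM in clone 7, 221 ± 5.63 for clone 8, 226 ± 5.99 for clone 9, 215 ± 29.1 for clone 10, 178 ± 5.23 for clone 11, 228 ± 46.4 for clone 12 and 219 ± 21.7 for clone 13, against 544 ± 5.51 in untreated cells (SD, n = 3, and 2 for clone 11). All 20 clone libraries, from 174 in clone 11 replicate 3 to 313 in clone 7 replicate 2, lay below all 3 untreated libraries, which held 550, 540 and 541 scaled TPM. The mean of the 7 clones differed from untreated cells by -1.28 on the log2 scale (SE 0.09), with an adjusted p of 5.57e-10 from limma with Benjamini-Hochberg adjustment over all 15657 genes tested.

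A change was called where the adjusted p was under 0.05 and the log2 fold change reached 1 in size. PRAME was called lower in 6 of the 7 clones, with log2 fold changes of -1.61 (SE 0.14, adjusted p = 9.66e-09) in clone 11 to -1.27 in clones 9 and 12. In clone 7 the log2 fold change was -0.85 (SE 0.12, adjusted p = 1e-05), which is under the fold minimum. With TPM as deposited the mean of the clones was -1.10 and clone 7 was -0.77. Of the 21 pairs of clones 0 were called, and the clone means spanned 0.76 on the log2 scale (F test, adjusted p = 0.00473, under the range minimum of 1). In the order of levels clone 7 came first and clone 11 last, and clones 8, 9, 10, 12 and 13 lay within their spread of each other. PRAME ranked between 414 and 666 among all 35438 genes in the clones and 198 in untreated cells. The melanocyte lineage markers were also lower in every clone library than in every untreated library and the fibroblast markers higher, and the part of either in the PRAME values was not tested. In bulk libraries, fewer cells with PRAME RNA and less PRAME RNA per cell cannot be told apart.

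**Figure D1:**
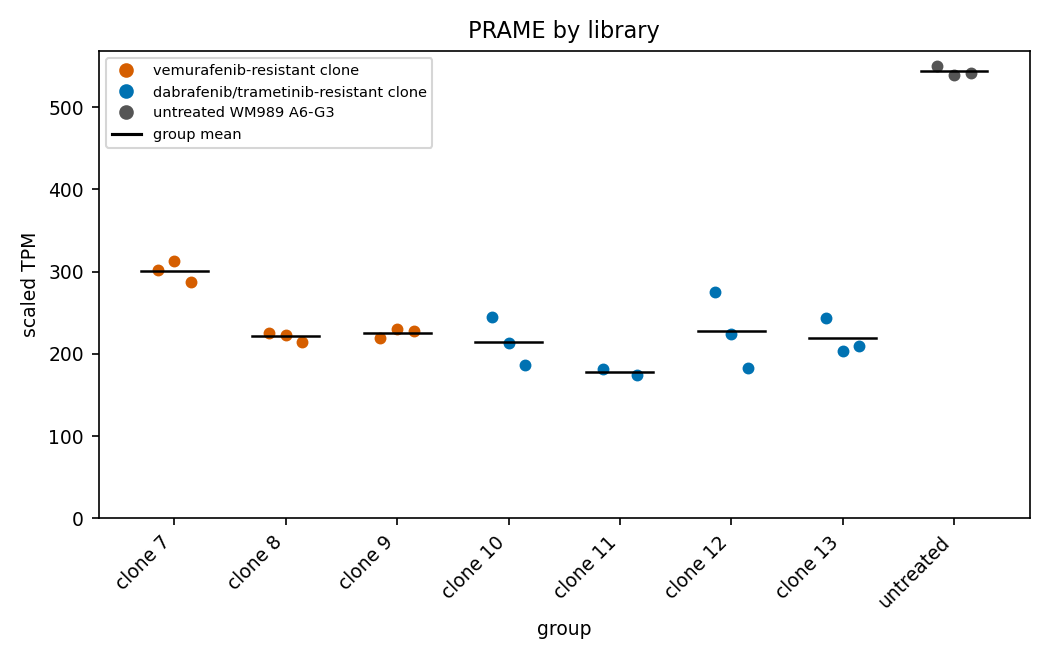
PRAME in scaled TPM for each library, by group, with bars at the group means and colours for the drug in which a clone was kept. The clone means lie between 178 and 301 scaled TPM, and the untreated libraries lie between 540 and 550.

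The 81 cancer-testis genes without PRAME were low in sum, and clones lay on both sides of untreated cells. Their summed level was 65.2 ± 6.96 scaled TPM in clone 7, 30.1 ± 11.0 for clone 8, 15.1 ± 0.734 for clone 9, 90.4 ± 26.9 for clone 10, 45.8 ± 12.1 for clone 11, 75.1 ± 7.30 for clone 12 and 63.8 ± 8.65 for clone 13, against 19.9 ± 2.48 in untreated cells (SD). Clone 9 alone had a mean below untreated cells. PRAME made up 70.4% of the summed TPM of the families and PRAME in clone 10 and 93.7% in clone 9, the lowest and highest among the clones, and 96.5% in untreated cells. Between 3 and 5 of these 81 genes reached 1 TPM as deposited in each library of clones 7 to 9, 6 to 18 in each library of clones 10 to 13, and 2 to 4 in each untreated library. XAGE2 and XAGE2B, 1 measurement, count as 2 here, and near-identical copies count singly. The same share over all genes is not given, so nothing is read from these counts about the drugs.

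Against untreated cells, 3 of the 20 tested genes were called higher in clone 7, where 11.0% of all tested genes were. The count was 1 in clone 8 (background 11.0%), 0 in clone 9 (11.5%, with 3 genes higher at an unadjusted p under 0.05, as were 26.1% of all tested genes), 10 in clone 10 (11.8%), 4 in clone 11 (11.7%), 5 in clone 12 (11.5%) and 7 in clone 13 (12.3%). The number called lower was 1 in clone 7 (background 8.54%), 1 in clone 8 (9.29%), 3 in clone 9 (8.29%), 1 in clone 10 (10.5%), 1 in clone 11 (9.53%), 1 in clone 12 (8.02%) and 1 in clone 13 (8.35%). Only 5 of the 20 had an untreated mean of at least 1 scaled TPM, namely PRAME, CSAG1, MAGEA12, MAGEA3 and MAGEA6. The other 15 were below it, and most of them could enter the test only through clones in which they were high, so these counts describe the table and support no statement on the families. Of the 20, 14 reached 1 TPM in no untreated library, 10 only in dabrafenib/trametinib clones and 5 only in 1 clone (CT45A2 and CT45A6 in clone 13, GAGE12H and MAGEC1 in clone 10, MAGEB6 in clone 9).

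In the mean of the 7 clones, 2 were called higher (background 10.9%) and 1, PRAME, lower (background 7.91%). The 2 were XAGE2B, at 1.19 (SE 0.29, adjusted p = 0.00203), and CT45A5, at 1.01 (SE 0.17, adjusted p = 4.24e-05), both by values that differed widely between clones. XAGE2, the same measurement as XAGE2B listed at a lower level, was at 0.79 (adjusted p = 0.00705) and was not called. The sum of XAGE2 and XAGE2B was called, at 1.46 (adjusted p = 0.000871). These genes reached 1 TPM in dabrafenib/trametinib clones only, so their p-values are a description. The CT45A5 value fell just under the fold minimum without clone 11 replicate 2 (0.94), clone 13 replicate 1 (0.98), or untreated replicate 1 or 2 (1.00 each). In at least 1 clone 15 of the 20 were called higher (background 21.5%) and 4 lower (background 17.0%), and CSAG1, MAGEA12 and MAGEA6 were called in both directions in different clones (3 genes, background 0.422%). In all 7 clones, 0 were called higher (background 4.87%) and 0 lower (background 4.18%). GAGE12B, MAGEB6, MAGEC2 and PAGE5 were called in none of the clones, PAGE5 being mentioned here after its values were seen since its highest group mean was 0.681 scaled TPM. Among the 7 clones themselves, 15 of the 20 differed by the F test with clone means spanning 1 or more in log2 (background 25.3%). Genes that entered the test through 1 or a few clones had to differ among clones, so nothing is read from this count. CTAGE5, an endoplasmic reticulum export protein caught by its letters, was at 8.56 to 12.6 scaled TPM in clone means and 8.07 in untreated cells, and SSX2IP, a centrosomal protein that binds SSX2, at 4.62 to 7.92 in clone means and 8.62 in untreated cells. Neither was called in any clone.

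**Figure D2:**
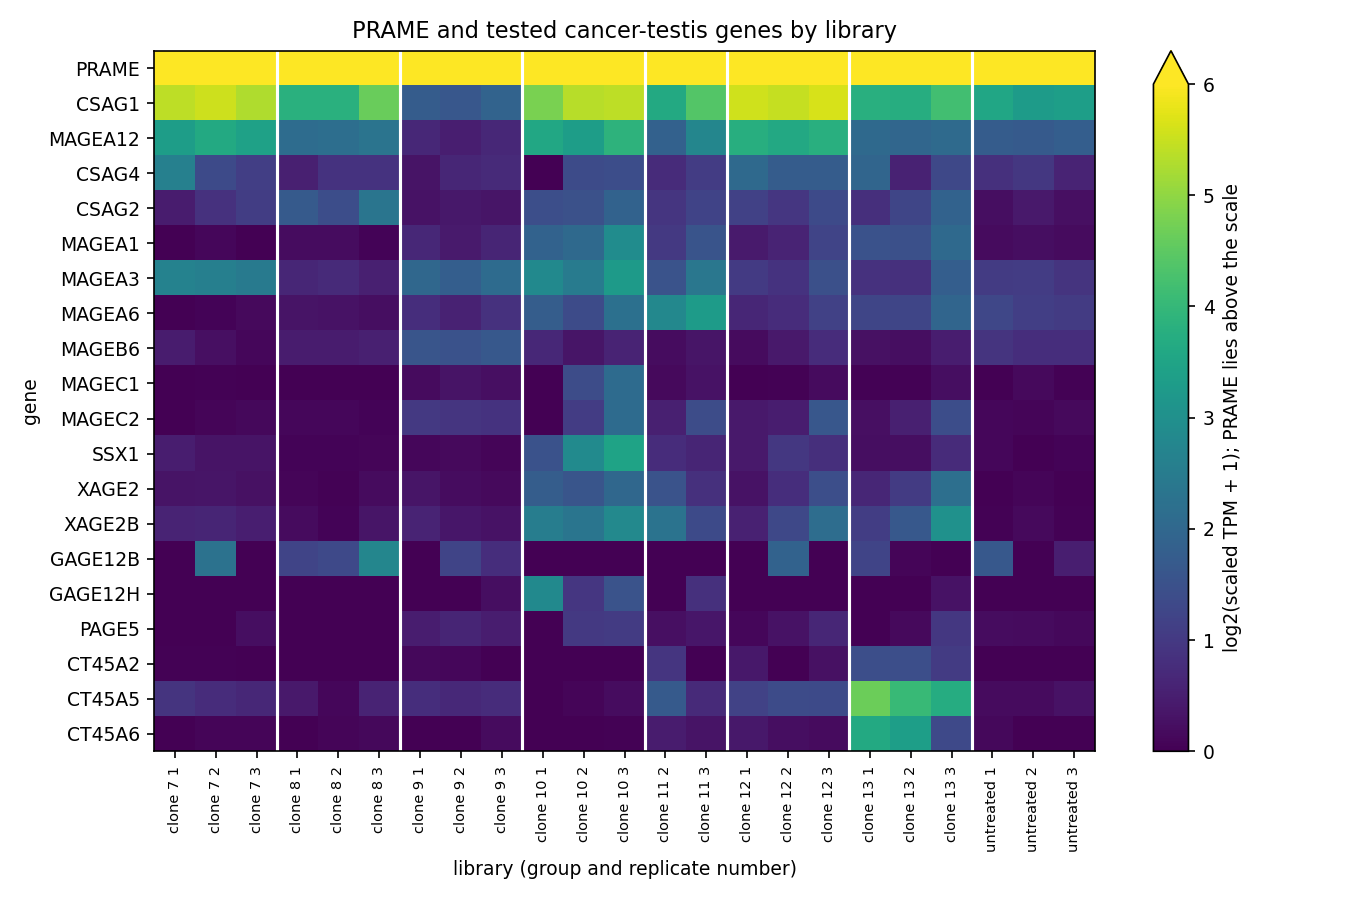
Heat map of log2(scaled TPM + 1) for PRAME and the 19 tested cancer-testis genes (rows) in the 23 libraries (columns, clones 7 to 13 and then untreated). Bright cells outside PRAME sit in different rows for different clones, such as CT45A5 in clone 13, with 24.1, 15.5 and 12.1 scaled TPM.

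CSAG1 and MAGEA12 were the most abundant cancer-testis transcripts after PRAME in clones 7, 10 and 12. CSAG1 encodes a centrosome-associated protein, and MAGEA12 a type I MAGE protein, a family that binds RING ubiquitin ligases. CSAG1 had 41.3, 45.4 and 38.0 scaled TPM in clone 7, with 26.8, 39.8 and 41.4 in clone 10 and with 46.6, 43.2 and 48.6 in clone 12, against 10.7, 8.88 and 9.23 in untreated cells. These libraries did not overlap with the untreated ones, and all were above them.

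The middle set was clone 8, with 13.0, 13.0 and 23.6 scaled TPM of CSAG1, clone 11, with 11.4 and 20.0, and clone 13, with 12.9, 12.3 and 17.2. Clone 9 was the lowest, with 2.33, 2.09 and 2.77. The middle clones were above every untreated library and clone 9 below every one. CSAG1 was called higher in clone 7 (log2 fold change 2.01, SE 0.22, adjusted p = 3.2e-07), clone 10 (1.78, adjusted p = 1.33e-06) and clone 12 (2.15, adjusted p = 1.18e-07) and lower in clone 9 (-1.64, adjusted p = 3.95e-06). It was not called in clone 8 (0.68, adjusted p = 0.0156), clone 11 (0.61, adjusted p = 0.0508) or clone 13 (0.50, adjusted p = 0.0668). The mean of the clones, 0.87, was under the fold minimum and reached 1.03 with TPM as deposited.

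MAGEA12 showed a similar order of clones at a lower level. Its mean was 10.1 ± 1.18 scaled TPM in clone 7, 3.59 ± 0.336 for clone 8, 0.526 ± 0.0972 for clone 9, 11.3 ± 2.31 for clone 10, 4.19 ± 2.16 for clone 11, 12.2 ± 0.794 for clone 12 and 3.12 ± 0.140 for clone 13, against 2.36 ± 0.121 in untreated cells (SD). Again clones 7, 10 and 12 were high and clone 9 alone was below untreated cells. It was called higher in clones 7 (1.73), 10 (1.85) and 12 (1.98, SE 0.17, adjusted p = 1.63e-08) and lower in clone 9 (-1.14, SE 0.17, adjusted p = 2.08e-05).

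For each of the 2 genes, 15 of the 21 pairs of clones were called. The 6 pairs not called were the same for both genes, those within clones 7, 10 and 12 and those within clones 8, 11 and 13. The largest difference was clone 9 against clone 12, at -3.80 for CSAG1 (adjusted p = 3.44e-09) and -3.12 for MAGEA12 (adjusted p = 3.02e-09). Within a group the ratio of CSAG1 to MAGEA12 averaged 3.28 in clone 10 to 4.61 in clone 9, and 4.08 in untreated cells. Across the 8 group means of log2 values, Pearson's r was 0.988 and Spearman's rho 0.952, and r was 0.984 without the 2 groups farthest from the median. These points share their libraries and scaling. Among the other 15656 tested genes, CSAG1 was the gene whose group means were most like those of MAGEA12, ranking 1 by Pearson's r.

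**Figure D3:**
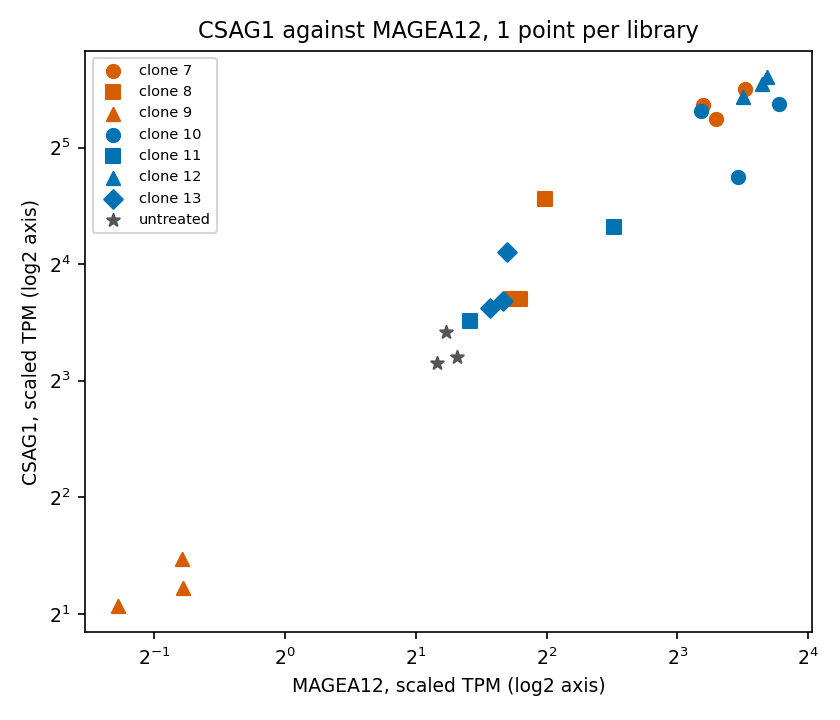
CSAG1 against MAGEA12 in scaled TPM, 1 point per library, both axes on a log2 scale. Clone 9 lies at the lower left with 0.413 to 0.584 of MAGEA12, clones 7, 10 and 12 at the upper right with 9.07 to 13.7, and untreated libraries between them at 2.24 to 2.49.

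CSAG2, known from a cell line selected for taxol resistance, had 2.25, 1.67 and 4.07 scaled TPM in clone 8, with 1.70, 1.80 and 2.68 in clone 10 and with 0.744, 1.37 and 2.73 in clone 13, against 0.170, 0.331 and 0.195 in untreated cells. It was called higher in clones 8 (1.52, adjusted p = 5.15e-05), 10 (1.30, adjusted p = 0.000248) and 13 (1.02, adjusted p = 0.00239), and the clone 13 call was lost without its replicate 3, at 0.72, or without untreated replicate 1 (0.98) or 3 (1.00). Its transcript shares 95.8% of 31-base stretches with CSAG3, so the 2 cannot be told apart here. CSAG4 overlaps MAGEA12 on the same strand by 3843 bases of the GENCODE gene models, and 25.9% of its transcript's 31-base stretches occur in another gene, 19.7% in CSAG2. Its clone means were highest in clone 12 and lowest in clone 9 (0.482 scaled TPM). Across the 8 group means of log2 values CSAG4 and MAGEA12 had a Pearson's r of 0.746 and a Spearman's rho of 0.762, and r was 0.491 without the 2 groups farthest from the median. These points share their libraries and scaling. CSAG4 had 3.14, 2.35 and 2.33 scaled TPM in clone 12, against 0.767, 0.949 and 0.510 in untreated cells. Its call in clone 12 (1.05, adjusted p = 0.0317) was lost without any 1 of the clone 12 libraries, at 0.95 to 1.10, and without untreated replicate 1 (1.07) or 3 (0.95). It was also lost with a pseudocount of 0.1 (1.71, adjusted p = 0.104) and with no filter on low genes (1.05, adjusted p = 0.066), in the same limma fit. CSAG4 ran from 1.15 to 5.10 scaled TPM in clone 7 and was at 0 in clone 10 replicate 1. CSAG2 and CSAG4 reached 1 TPM in no untreated library and were tested through clones, so their p-values and calls are a description.

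MAGEA3 and MAGEA6 are near-identical type I MAGE genes whose products bind the RING ligase TRIM28, and their transcripts share 67.9% of the 31-base stretches of MAGEA3 and 64.3% of those of MAGEA6. MAGEA3 had 5.36, 4.99 and 4.42 scaled TPM in clone 7 and 6.18, 4.62 and 8.68 in clone 10, against 1.06, 1.10 and 0.878 in untreated cells. MAGEA6 had 0, 0.0464 and 0.105 scaled TPM in clone 7 and 6.01 and 8.77 in clone 11, against 1.43, 1.18 and 1.07 in untreated cells. None of these groups overlapped with untreated cells.

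MAGEA3 was called higher in clones 7 (1.56, adjusted p = 4.42e-05) and 10 (1.86, adjusted p = 4.77e-06). MAGEA6 was called lower in clone 7 (-1.08, adjusted p = 0.000334) and higher in clone 11 (1.90, adjusted p = 2.06e-06), a difference of -2.98 between clones 7 and 11 (adjusted p = 3.6e-08). The share of MAGEA3 in the sum of both was 98.9% ± 1.17 for clone 7, 71.7% ± 2.62 for clone 8, 81.5% ± 1.97 for clone 9, 72.3% ± 2.04 for clone 10, 28.3% ± 5.95 for clone 11, 59.3% ± 5.50 for clone 12 and 39.6% ± 5.54 for clone 13, against 45.3% ± 2.99 in untreated cells (SD). Clone 7 was thus at one end and clone 11 at the other, and only clone 13 overlapped with untreated cells.

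The sum of both genes does not depend on how reads were divided between them. It was 9.03 ± 3.08 scaled TPM in clone 10 and 10.5 ± 3.59 for clone 11, against 2.24 ± 0.274 in untreated cells, and was called higher in clones 10 (1.59, SE 0.26, adjusted p = 4.57e-05) and 11 (1.79, SE 0.29, adjusted p = 4.86e-05). In clone 7 the sum was 4.97 ± 0.423 and missed the fold minimum (0.88, adjusted p = 0.00901), and in clone 8 it was 0.756 ± 0.144 (-0.88, adjusted p = 0.00891). The mean of the clones was 0.58 (adjusted p = 0.0178), also under the fold minimum.

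**Figure D4:**
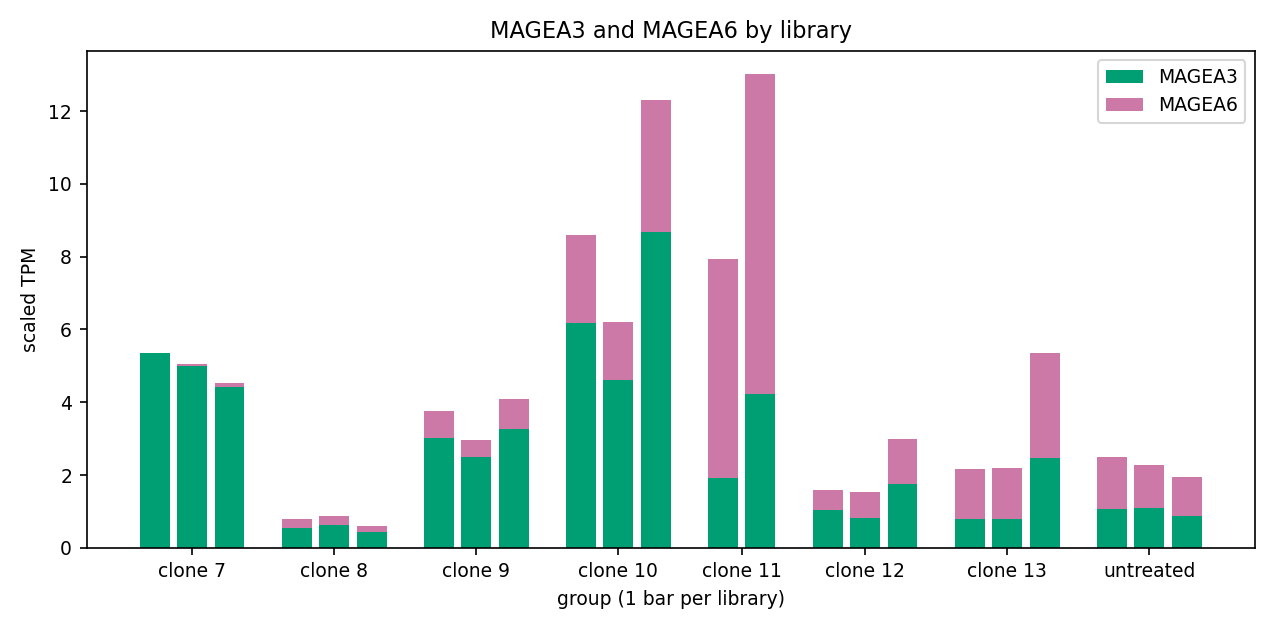
MAGEA3 and MAGEA6 in scaled TPM as stacked bars, 1 bar per library in group order. Clone 7 bars hold almost no MAGEA6 (0 to 0.105 scaled TPM), and clone 11 bars hold more MAGEA6 (6.01 and 8.77) than MAGEA3 (1.91 and 4.23).

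The other 4 tested MAGE genes, MAGEA1, MAGEC1, MAGEC2 and MAGEB6, were highest in clone 10 or clone 9. MAGEA1, a gene whose peptides are known T-cell targets in melanoma, had 2.68, 3.17 and 6.50 scaled TPM in clone 10, with 0.988 and 1.94 in clone 11 and with 1.83, 1.77 and 3.17 in clone 13, against 0.125, 0.168 and 0.131 in untreated cells. It was called higher in clones 10 (2.09, adjusted p = 5.74e-07), 11 (1.08, adjusted p = 0.0028) and 13 (1.49, adjusted p = 4.07e-05), and the clone 11 call was lost without replicate 3, at 0.80. Leaving out a library of clone 11 leaves 1, which the fit assumes to vary like the other groups, here and wherever such a value is given. In clones 7 and 8 MAGEA1 stayed at or below 0.141 scaled TPM. MAGEA1 reached 1 TPM in libraries of clones 10 to 13 only and was tested through them, so its p-values and calls are a description.

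MAGEC1 had 0, 1.63 and 3.30 scaled TPM in clone 10, against 0.0153, 0.111 and 0.0300 in untreated cells, and was called in clone 10 only (1.09, SE 0.30, adjusted p = 0.00564, and 1.68 without replicate 1). MAGEC1 reached 1 TPM in 2 libraries, both of clone 10, so it could be tested only through that clone and the p supports nothing further. MAGEC2, whose product also binds TRIM28, had 0, 1.10 and 3.25 scaled TPM in clone 10 and 0.987, 0.903 and 0.828 in clone 9, against 0.0787, 0.0627 and 0.103 in untreated cells. It was called in no clone, with log2 fold changes of 0.94 (adjusted p = 0.0592) in clone 10 and 0.82 (adjusted p = 0.108) in clone 9. The 0 values of MAGEC1 and MAGEC2 in clone 10 are those of replicate 1, the library with the fewest genes above 0.

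MAGEB6, a little-studied type I MAGE gene, was highest in clone 9. It had 2.01, 1.85 and 2.15 scaled TPM in clone 9, against 0.869, 0.723 and 0.717 in untreated cells, and means of 0.208 to 0.452 in the other 6 clones. Clone 9, the clone with the least CSAG1 and MAGEA12, was above every other library for MAGEB6. Its differences from untreated cells were under the fold minimum, at 0.76 in clone 9 (adjusted p = 0.000209) and -0.55 in clones 7 and 11. Clone 9 was called higher than each of the other 6 clones, by 1.05 to 1.32. MAGEB6 reached 1 TPM in clone 9 libraries only and was tested through them, so its p-values and calls are a description.

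CT45A genes, which encode nuclear proteins, were high in clone 13. CT45A5 had 24.1, 15.5 and 12.1 scaled TPM there, against 0.135, 0.139 and 0.225 in untreated cells, and CT45A6 had 11.5, 9.36 and 1.52 in clone 13, against 0.0892, 0 and 0 in untreated cells. CT45A2 had 1.71, 1.72 and 1.07 scaled TPM in clone 13 and was listed at 0 in the untreated libraries, so no fold is given. All 3 were called in clone 13, with 3.92 (SE 0.22, adjusted p = 2.42e-11) for CT45A5, 2.74 (SE 0.35, adjusted p = 2.78e-06) for CT45A6 and an adjusted p of 3.64e-06 for CT45A2. CT45A2 and CT45A6 reached 1 TPM in clone 13 libraries only and were tested through them, so their p-values are a description. CT45A5 reached 1 TPM in libraries of clones 11, 12 and 13 only, so its p-value is a description as well. Without clone 13 replicate 3, CT45A6 moved to 3.46.

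Over the 6 CT45A genes the sum was 37.4, 26.9 and 17.7 scaled TPM in clone 13, with 3.69 and 0.899 in clone 11 and with 1.88 ± 0.125 for clone 12, against 0.255 ± 0.0625 in untreated cells. The sum was called in clones 13 (4.44, SE 0.26, adjusted p = 4.62e-11), 12 (1.20, adjusted p = 0.000893) and 11 (1.25, adjusted p = 0.00173), and the clone 11 value depended on replicate 2, at 0.60 without it and 1.90 without replicate 3, each with 1 library left in clone 11. The mean of the clones, 1.15 (adjusted p = 6.47e-05), thus joins 1 clone far above the rest with several near untreated cells. CT45A5 was called higher in clone 13 than in each of the other 6 clones, the other clones minus clone 13 running from -4.04 for clone 10 to -2.84 for clone 12. CT45A2 shares 97.6%, CT45A5 95.1% and CT45A6 100% of its 31-base stretches with other genes, so the division among them is uncertain and the sum is the firmer level. In untreated libraries the sum lay between 0.214 and 0.327 scaled TPM. It could enter the test only through clones, so the p-values and calls of CT45A5 and of the sum are a description.

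SSX1, a nuclear repressor known from its fusion to SS18 in synovial sarcoma, was high in clone 10. It had 1.84, 6.32 and 10.2 scaled TPM there, against 0.0707, 0.0141 and 0.0487 in untreated cells, and the next highest clone mean was 0.691 in clone 12. Clone 10 did not overlap with any other group. The log2 fold change was 2.56 (SE 0.31, adjusted p = 1.09e-06) and ran from 2.12 without clone 10 replicate 3 to 3.12 without replicate 1. SSX1 was called higher in clone 10 than in each of the other 6 clones, by 1.88 to 2.55. It reached 1 TPM in 4 libraries, of clones 10 and 12 only, and entered the test through clone 10. The p-values and calls of SSX1 are therefore a description.

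XAGE2, of a family of small proteins of little known function, had 2.42, 2.02 and 3.02 scaled TPM in clone 10, with 1.92 and 0.768 in clone 11, with 0.233, 0.726 and 1.72 in clone 12 and with 0.563, 1.07 and 3.60 in clone 13, against 0.0128, 0.0560 and 0.0106 in untreated cells. Clones 7, 8 and 9 had means of 0.242, 0.0729 and 0.172. The sum of XAGE2 and XAGE2B was called in clones 10 (2.96, SE 0.43, adjusted p = 1.21e-05), 11 (2.13, adjusted p = 0.00131), 12 (1.58, adjusted p = 0.00556) and 13 (2.24, adjusted p = 0.000263), and in none of clones 7 (0.68), 8 (0.17) and 9 (0.48). Without clone 13 replicate 3 the clone 13 value was 1.64. As single rows, the calls of XAGE2 in clones 11 and 13 and of XAGE2B in clones 11 and 12 were each lost without 1 library of that clone. XAGE2 and XAGE2B reached 1 TPM in libraries of clones 10 to 13 only and were tested through them. The p-values and calls of the pair and of its sum are therefore a description.

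**Figure D5:**
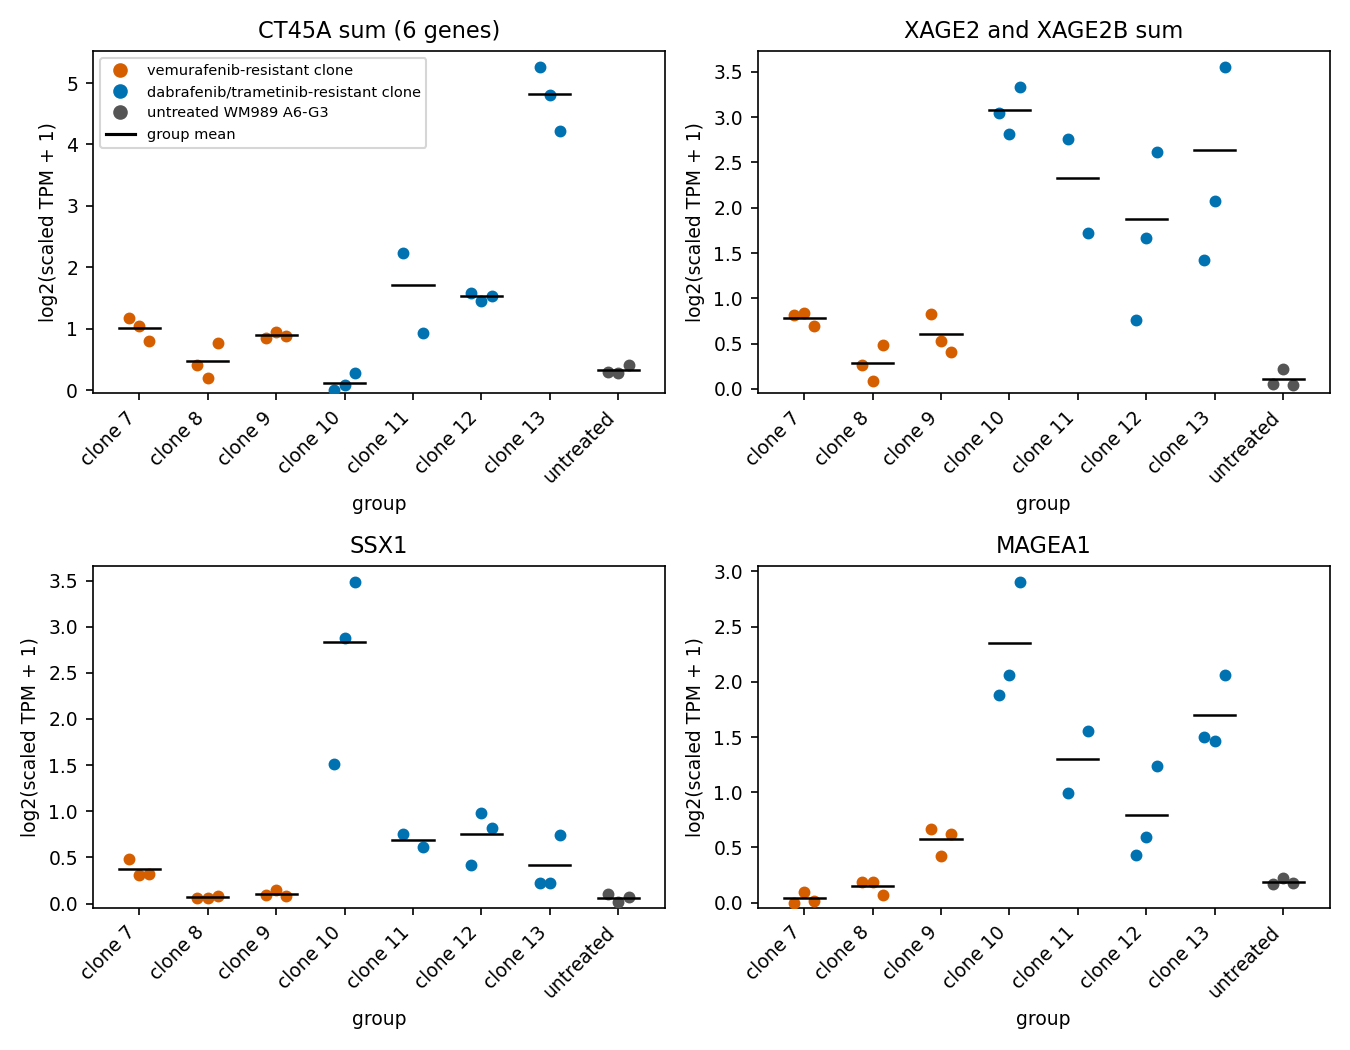
Summed CT45A genes (top left), summed XAGE2 and XAGE2B (top right), SSX1 (bottom left) and MAGEA1 (bottom right). Values are log2(scaled TPM + 1) for each library, with bars at group means. The CT45A sum is highest in clone 13, at 17.7 to 37.4 scaled TPM, and the XAGE2 sum is higher in each library of clones 10 and 11 than in any library of clones 7 to 9.

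GAGE genes, a tandem family of small acidic proteins, gave the least certain values. GAGE12H had 6.19, 0.944 and 1.89 scaled TPM in clone 10 and was listed at 0 in untreated cells, so no fold is given. It reached 1 TPM in clone 10 libraries only. GAGE12B ranged from 0 to 5.79 scaled TPM within the clones, with 1.34, 1.50 and 5.79 in clone 8, against 2.15, 0 and 0.427 in untreated cells, and the groups overlapped. The reference transcript of GAGE12B has 87 stretches of 31 bases, all of which occur in other GAGE genes. The sum of the 17 GAGE genes was 6.27 ± 3.96 scaled TPM in clone 10, against 1.23 ± 1.26 in untreated cells, and was called only there (1.68, SE 0.66, adjusted p = 0.0407). That call was lost without clone 10 replicate 1 (1.61), clone 10 replicate 3 (1.28), untreated replicate 2 (1.35) or untreated replicate 3 (1.58). It was also lost with a pseudocount of 0.1 (2.49, adjusted p = 0.0978) or 0.5 (2.02, adjusted p = 0.0558) and with no filter on low genes (1.68, adjusted p = 0.0847), in the same limma fit.

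Between the drug arms, with the clone as the unit, 0 of the 20 genes were called by limma, where 0.0128% of all genes were called higher and 0% lower in vemurafenib clones. At an unadjusted p under 0.05, 1 was higher and 5 lower in the vemurafenib arm, where 7.24% of all tested genes were higher and 7.18% lower. XAGE2 and XAGE2B, 1 measurement, are 2 of the 5. The clone means of the 3 vemurafenib clones all lay below those of the 4 dabrafenib/trametinib clones for 5 of the 20 (background 7.04%): MAGEA1, MAGEA6, SSX1, XAGE2 and XAGE2B. MAGEA1, SSX1, XAGE2 and XAGE2B reached 1 TPM in dabrafenib/trametinib clones only and so entered the test through that arm, and nothing is read from this count. The vemurafenib clone means all lay above for 1, GAGE12B (background 7.30%). XAGE2B had clone means of 0.146 to 0.484 scaled TPM in the vemurafenib arm and 1.78 to 4.97 in the dabrafenib/trametinib arm, a difference of -1.51 on the log2 scale (SE 0.28, adjusted p = 0.154). MAGEA1 had 0.0280 to 0.489 scaled TPM in the vemurafenib arm and 0.738 to 4.12 in the dabrafenib/trametinib arm (-1.24, SE 0.34, adjusted p = 0.233). PRAME had 221 to 301 scaled TPM in the vemurafenib arm and 178 to 228 in the dabrafenib/trametinib arm, which overlapped (0.25, SE 0.15, adjusted p = 0.479).

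For some genes, libraries numbered 3 were high within the dabrafenib/trametinib clones. Replicate 3 was the highest library in each of clones 10, 11, 12 and 13 for 9 of the 20 genes, CSAG1, CSAG2, MAGEA1, MAGEA12, MAGEA3, MAGEA6, MAGEC1, MAGEC2 and PAGE5 (background 5.72%). In clones 7 to 9 this held for 0 of the 20 (background 1.49%). What the replicate number marks is not stated, and its part in these values was not tested. Without the third replicates of clones 10 to 13, the number of genes called higher in clone 12 was 3 in place of 5, and the other counts of calls per clone stayed within 1.5 times. Calls lost in this setting were CSAG2 (0.72) and XAGE2 (0.80) in clone 13, CSAG4 (1.10) and XAGE2B (0.84) in clone 12, and the GAGE sum in clone 10 (1.27). MAGEA1 in clone 11, where 1 library was left, moved to 0.79.

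Genes that act on the cancer-testis loci or with their products were followed as lists, here for the average of the 7 clones relative to untreated cells (background 10.9% higher and 7.91% lower, and a median log2 fold change of -0.01 over all genes). At an unadjusted p under 0.05, 31.0% of all tested genes were higher and 29.6% lower in this comparison. Of 16 tested genes of the DNA methylation machinery, 0 were called higher and 1 lower, with a median of 0.08. That gene was ZBTB33, which encodes the methyl-CpG-binding protein Kaiso, with clone means of 3.84 to 5.54 scaled TPM, against 10.6 ± 0.859 in untreated cells (-1.02, adjusted p = 1.32e-06). DNMT1, the maintenance methyltransferase, had clone means of 39.9 to 60.3 scaled TPM, against 36.1 ± 0.768 in untreated cells (0.38, adjusted p = 0.00831), under the fold minimum. DNMT3A went the other way, with clone means of 2.07 to 7.27 scaled TPM, against 6.46 ± 0.564 in untreated cells (-0.65, adjusted p = 0.000428). It was also under the fold minimum in the mean and was called lower in 2 clones. At an unadjusted p under 0.05, 4 genes of this list were higher and 3 lower. Of 21 histone repressors of germline genes, 0 were called in either direction, with a median of -0.09, and 2 were higher and 6 lower at an unadjusted p under 0.05.

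Of 8 genes of the PRAME ubiquitin ligase and its partners, 0 were called in either direction and the median was 0.29, with 3 higher and 1 lower at an unadjusted p under 0.05. CUL2, the scaffold of that ligase, had clone means of 10.5 to 15.7 scaled TPM, against 10.3 ± 1.21 in untreated cells (0.29, adjusted p = 0.143). Of 8 RING partners of type I MAGE proteins 0 were called, with a median of -0.13, and 2 were higher and 2 lower at an unadjusted p under 0.05. Among 9 tested type II MAGE genes, broadly expressed in adult tissues, 1 was called higher and 0 lower, with a median of 0.31. At an unadjusted p under 0.05, 5 were higher and 0 lower. The called gene was MAGED1, a binding partner of the neurotrophin receptor, which was called in 5 of the 7 clones. It had clone means of 152 to 269 scaled TPM, against 85.5 ± 1.69 in untreated cells (1.24, SE 0.10, adjusted p = 1.4e-09).

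Of 69 other cancer-testis and germline genes 24 were tested, of which 2 were called higher and 1 lower, with a median of 0.15. SPA17, a sperm surface protein, had clone means of 4.54 to 9.60 scaled TPM, against 2.19 ± 0.163 in untreated cells (1.45, adjusted p = 9.81e-09). CEP55, a midbody protein of dividing cells that is also listed as a cancer-testis antigen, had clone means of 31.5 to 53.4 scaled TPM, against 16.8 ± 1.03 in untreated cells (1.14, adjusted p = 4.41e-05). TEX15, known in mouse for meiosis and transposon silencing in the germline, had clone means of 0.0213 to 0.198 scaled TPM, against 1.48 ± 0.331 in untreated cells, and was called lower in all 7 clones (-1.18 in their mean, adjusted p = 1.05e-09). With such clone means TEX15 could enter the test only through the untreated libraries, so its p-value and calls are a description. Of the 19 PRAME family genes, close relatives of PRAME, 0 were high enough to be tested.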

How the data were processed

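RNA of 23 libraries was analysed from 1 table of 35438 genes. Its values were deposited by the authors and are read here as TPM, since each column sums to the same total, although its name speaks of counts. Tools listed in the submitters' processing notes are kallisto and the build hg19, both without a version. The annotation and any filter of theirs are not given in the sources used. Since TPM keeps no depth, it is unknown, and precision was taken from the spread between libraries.

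TPM were scaled by a trimmed mean of log ratios (30% of log ratios and 5% of levels trimmed) over 10822 genes at 1 TPM or more in every library. Genes at 1 TPM or more in at least 2 libraries, 15657 in all, were tested on log2(scaled TPM + 1), a scale that understates changes of low genes. limma 3.58.1 in R 4.3.3 (lmFit and eBayes with trend) fitted all 23 libraries with 8 groups. Calls needed an adjusted p (Benjamini-Hochberg, over every tested gene) under 0.05 and a log2 fold change, or range among clones, of 1 or more in size. For the drug arms, limma compared clone means. For sums, near-identical genes were added before the same fit, over 15652 rows. The script was tested on simulated data with 200 changed genes. A design for counts or TPM had been written, and the TPM form was used. The members and lists were chosen with earlier results of these data known.

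Named genes are PRAME and members with a mean of at least 1 scaled TPM in a group, those with a group mean of at least 10 being given by library or group, and of each context list the genes called in the mean of the clones, at most 4. DNMT1, DNMT3A and CUL2 are named outside this rule, after their values were seen, and PAGE5 likewise. Shared 31-base stretches were counted in GENCODE release 29 transcripts. Promoters are from RefSeq (GRCh38.p14) and were matched by symbol for 66 members; no deposited coordinate was used. Alternatives were other scalings, pseudocounts, filters, a replicate block, no variance trend, summed families, and leaving out libraries. Leaving out clone 10 replicate 1 with clone 8 replicate 3, or the third replicates of clones 10 to 13, was chosen after seeing the data.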

Additional observations from a re-analysis of the deposited data

Results flagged for a closer look

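Among the 7 clone means on the log2(scaled TPM + 1) scale, the highest stood far from the next one for 8 genes. A gap of this size relative to the range is reached by chance in about 1 in 20 sets of values, and 7.69% of all 15657 tested genes had one at either end. CT45A2, CT45A6, GAGE12H, MAGEC1 and MAGEB6 reached 1 TPM only in the clone in which they stood apart and were tested through it, so nothing is read from the count of 8. In clone 13 these were CT45A2 (1.31, next 0.46), CT45A5 (4.14, next 1.30) and CT45A6 (2.78, next 0.39), which share sequence and are not independent. In clone 10 they were GAGE12H (1.78, next 0.42), MAGEC1 (1.17, next 0.24) and SSX1 (2.62, next 0.74). MAGEB6 stood apart in clone 9 (1.59, next 0.53). GAGE12B stood apart in clone 8 (1.77, next 0.76), where its libraries overlapped with untreated ones.

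3 genes changed in opposite directions in different clones, and the difference between the clones was itself past the threshold in the limma fit. CSAG1 differed by -3.80 between clone 9 and clone 12 (adjusted p = 3.44e-09), with all 3 libraries of clone 9 below and all 3 of clone 12 above untreated cells. MAGEA12 differed by -3.12 between the same clones (adjusted p = 3.02e-09), with the same arrangement of libraries. MAGEA6 differed by -2.98 between clone 7 and clone 11 (adjusted p = 3.6e-08), with all 3 libraries of clone 7 below and both of clone 11 above untreated cells. The sum of MAGEA3 and MAGEA6 was higher than in untreated cells in both of these clones, by 0.88 in clone 7 (adjusted p = 0.00901, under the fold minimum) and 1.79 in clone 11 (adjusted p = 4.86e-05), so the opposite directions of MAGEA6 are not seen in the sum.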

How the results depend on the processing

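The pseudocount had the widest effect on counts of calls. With 0.1 in place of 1, the number called higher was 7 in clone 7, 5 in clone 9, 9 in clone 11, 8 in clone 12 and 8 in the mean of the clones, and the number called lower was 2 in each of clones 7, 8, 11 and 13. With 0.5, it was 1 higher in clone 9, 7 in clone 11, 8 in clone 12 and 5 in the mean, and 2 lower in clone 8. As deposited, clone 9 had 1 higher. With near-identical families summed, clone 13 had 4 higher, and clone 7 had 0 lower, where the sum of MAGEA3 and MAGEA6 was 0.88. Without the third replicates of clones 10 to 13, clone 12 had 3 higher. Leaving out 1 library at a time gave 3 to 5 higher in clone 12 (3 without clone 12 replicate 3), 0 to 1 in clone 9 (1 without its replicate 2) and 1 to 2 in the mean. Leaving out clone 10 replicate 1 and clone 8 replicate 3 together kept every count within 1.5 times and ended 1 call, the GAGE sum in clone 10 (1.62). PRAME stayed called lower in clones 8 to 13 under every alternative run, between -1.64 and -1.04. The MAGEA6 mean of the clones, 0.03 and never called, was -0.39 with a pseudocount of 0.1, -0.0747 with 0.5, -0.0874 without the third replicates, and -0.0225 to 0.0939 in leaving out 1 library, falling below 0 without replicate 3 of clone 10, clone 11, clone 13 or untreated cells. The GAGE12B mean, -0.11, ran from -0.48 without untreated replicate 2 to 0.35 without untreated replicate 1. MAGEC1 could not be tested without clone 10 replicate 2 or 3. The cause of these shifts was not tested. A fit with a replicate block ended no call against untreated cells and kept the counts of calls within 1.5 times. The replicate numbers did not meet the criterion for pairing, every same-numbered pair above 0.1: deviations of same-numbered libraries correlated at a median of 0.01 (28 of 77 pairs above 0.1) and 12 of 23 libraries correlated best with their own number, a hint from the data and not from the design.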
